A study of Mus musculus with 8 samples.

Results

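Lymphocytes are sparse residents of the heart, and the 34 genes described here mark their 3 main kinds. The genes were the rows of the deposited count table whose symbol belonged to a list of 9 B cell genes, 15 T cell genes, 9 natural killer (NK) and cytotoxic genes and Ptprcap, which B, T and NK cells share. All 34 were found among 30495 genes. RNA came from right ventricles of female mice aged 8 weeks, either wild type (WT) or without Fpr2 (Fpr2-KO), which encodes a receptor for formylated peptides on leukocytes. Control mice of both genotypes stayed at normal oxygen for 21 days. The SuHx groups of both genotypes combined 3 weeks of hypoxia with Sugen (20 mg/kg), a blocker of VEGF receptors, and this model loads the right ventricle. Each of the 4 groups (WT control, WT SuHx, Fpr2-KO control and Fpr2-KO SuHx) had 2 libraries, 8 in all. The labels do not say how the Fpr2 allele was made, whether animals were pooled, or whether each library is 1 animal. The p-values therefore reflect only how far these libraries spread, which may be technical.

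B cells carry an antigen receptor made of immunoglobulin chains and the signalling chains Cd79a and Cd79b, and those that become plasma cells secrete the immunoglobulin. T cells carry a receptor of paired variable chains that signals through the Cd3 chains and Cd247, with Cd4 or Cd8 as co-receptor and the kinases Lck and Zap70 downstream. NK cells lack both receptors and share with cytotoxic T cells the contents of lytic granules, perforin and granzymes. In the heart all 3 kinds are few beside macrophages, and some lie in blood left in the vessels.

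Total counts per library were 67965311 to 76292772. Fpr2 was counted 12 to 23 times in the WT libraries and 0 times in all 4 Fpr2-KO libraries. Ventricular muscle genes (8 of 8 measured) summed to 31922 to 41960 CPM (the count divided by the library total, times 1000000) in every control and SuHx library, the tissue the labels name. Atrial muscle genes (5 of 5 measured) summed to 2765 CPM in Fpr2-KO SuHx library 2 and to 25.4 to 314 CPM in the other 7 libraries. Low values were not spread evenly: 944 to 1079 genes per library held exactly 4 counts, against 417 to 525 at 3 counts and 289 to 330 at 5. How many counts 1 sequenced fragment gives is not stated, so the smallest counts below may stand for single fragments.

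The promoters of 3 members are shown because their counts rose with SuHx in WT and because they have an entry in the promoter table, Cd79a and Bank1 of B cells and Cd3e of T cells. They are RefSeq sequences of GRCm38.p6, the assembly that mm10 names, from 250 bases before to 50 bases after the gene start, 5′ to 3′ on the gene's strand. Cd79a lies at chr7:24897247-24897546 on the plus strand, Bank1 at chr3:136326017-136326316 on the minus strand and Cd3e at chr9:45009562-45009861 on the minus strand. Capitals mark matches to the E-box CAGGTG and to the ETS-type motif AGGAAGTG, on either strand.
Cd79a: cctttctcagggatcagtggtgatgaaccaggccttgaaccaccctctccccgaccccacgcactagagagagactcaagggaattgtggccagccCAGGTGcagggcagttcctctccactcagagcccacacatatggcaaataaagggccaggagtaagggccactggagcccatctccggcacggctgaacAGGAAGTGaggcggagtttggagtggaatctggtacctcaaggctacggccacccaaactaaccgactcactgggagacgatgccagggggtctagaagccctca
Bank1: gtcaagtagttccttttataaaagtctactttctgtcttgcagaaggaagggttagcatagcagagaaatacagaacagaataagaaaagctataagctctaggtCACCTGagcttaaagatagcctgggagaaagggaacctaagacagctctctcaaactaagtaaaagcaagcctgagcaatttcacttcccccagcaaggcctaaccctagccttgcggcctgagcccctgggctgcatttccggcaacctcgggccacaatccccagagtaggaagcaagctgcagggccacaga
Cd3e: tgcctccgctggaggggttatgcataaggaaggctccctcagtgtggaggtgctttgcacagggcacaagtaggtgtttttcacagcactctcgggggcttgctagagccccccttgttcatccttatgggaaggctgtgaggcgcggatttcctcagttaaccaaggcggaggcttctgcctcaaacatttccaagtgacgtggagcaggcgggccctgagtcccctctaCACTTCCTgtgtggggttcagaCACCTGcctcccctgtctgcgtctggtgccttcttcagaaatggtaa
The E-box began at -154 in Cd79a, at -145 in Bank1 and at 3 in Cd3e, counted with 0 at the start base. The ETS-type motif began at -55 in Cd79a and at -19 in Cd3e and was not in the Bank1 window. Of all 32851 promoters of this length, 20.2% held the E-box and 4.07% the ETS-type motif. Of the 23 members with a promoter, called or not, 13 held the E-box and 5 the ETS-type motif. The octamer ATTTGCAT (1.74% of all promoters), the EBF1 palindrome (0.904%), CCGGAAGT (3.89%) and TGTGGTT (5.27%), searched on both strands, were in none of these 3 windows. No match overlapped another in them. A match of letters is a description and not a binding site.

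Most members were rare. The 9 B cell genes together had 382 to 2124 counts per library, the 15 T cell genes 677 to 1669 and the 9 NK genes 40 to 226. In the deposited FPKM values, which are per transcript length and were read for the WT controls, Ighm, the heavy chain of IgM, was at 1.62 and 2.15, Igkc, the kappa light chain, at 1.95 and 1.63, Thy1 at 0.713 and 1.04 and Cd28 at 0.615 and 0.425. Cd28 is the co-stimulatory receptor of T cells, and the receptor chain Cd3e was listed at 0 in both of these libraries. In WT controls Cd28 was counted 280 and 201 times and Cd3e 0 and 0 times. Thy1, a surface glycoprotein of mouse T cells that fibroblasts and nerve cells also carry, took with Cd28 between 57.4% and 76.0% of all T cell gene counts.

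**Figure D1:**
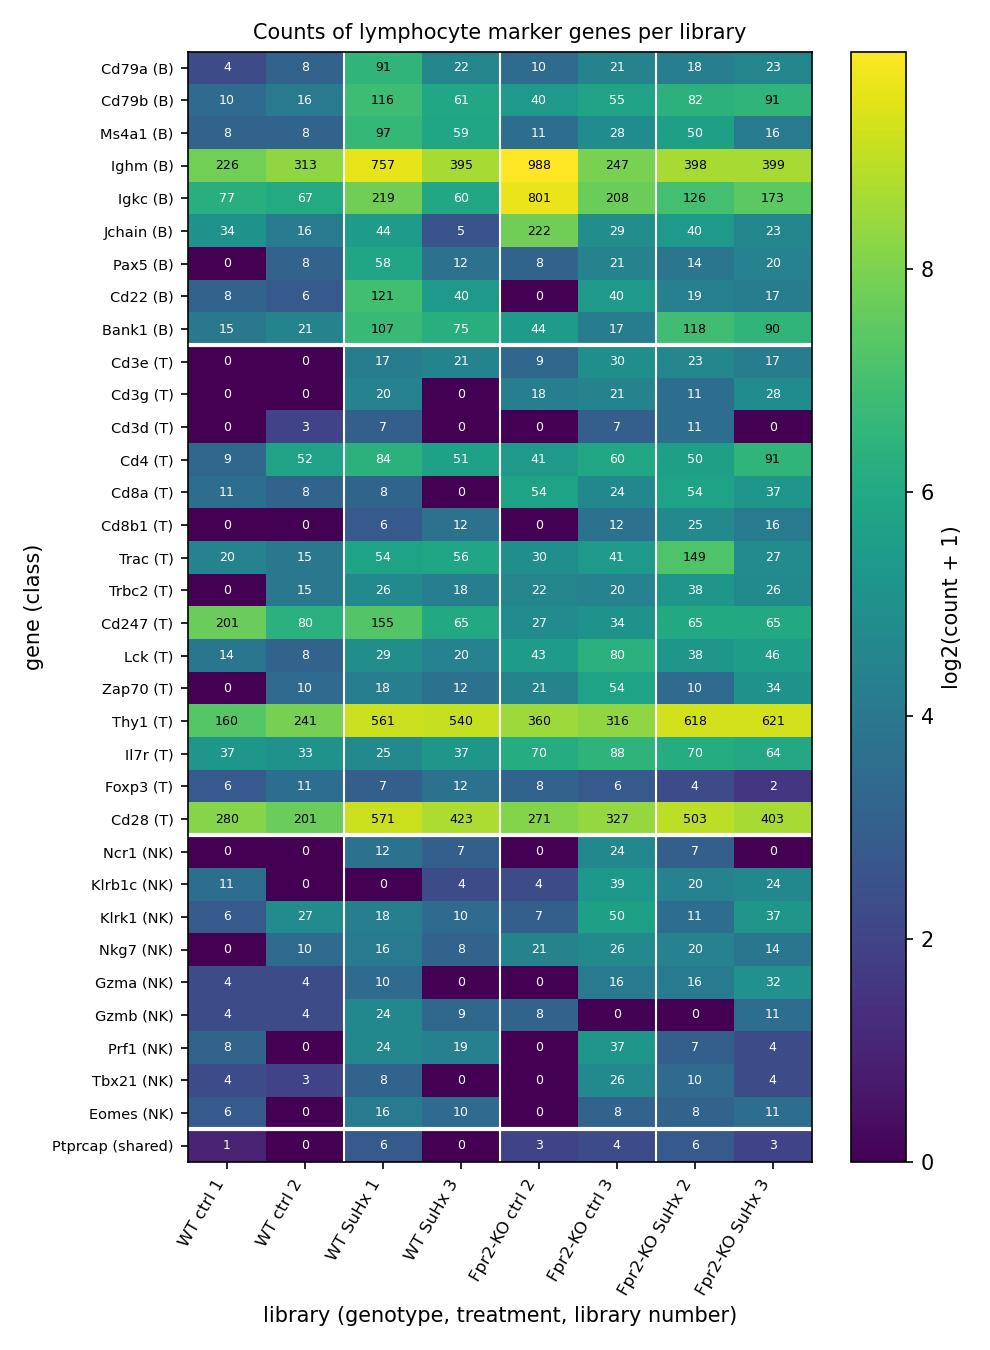
Counts of the 34 genes (rows, class in brackets) in the 8 libraries (columns); colour is log2(count + 1) and the printed number is the count. The immunoglobulin gene Ighm and the T cell genes Thy1 and Cd28 are bright in all libraries, and Igkc ranges from 60 to 801 counts. WT control libraries 1 and 2 have 9 and 8 members at 0.

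WT control libraries 1 and 2 held 9 and 8 members at 0, Fpr2-KO control libraries 2 and 3 held 8 and 1, WT SuHx libraries 1 and 3 held 1 and 6, and Fpr2-KO SuHx libraries 2 and 3 held 1 and 2. Zeros occurred in all 8 libraries. In bulk tissue, fewer cells of a type and less RNA per cell cannot be told apart. After the filter on low counts 19083 genes were tested, with 9 of 9 B cell, 14 of 15 T cell and 9 of 9 NK genes among them. Cd3d and Ptprcap did not pass. Members that pass such a filter through 1 group where they are high are the more likely to differ.

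The first comparison asks how B cell genes of the WT right ventricle stand after SuHx. The B cell receptor genes Cd79a and Cd79b, the surface gene Ms4a1 and the adaptor gene Bank1 rose, from near the floor of detection, and the immunoglobulin genes did not pass the test. In all, 4 of 9 B cell genes were called higher and 0 lower by edgeR's quasi-likelihood test at an adjusted p under 0.05. Over all 19083 genes 10.9% were called higher and 20.5% in either direction. The median log2 fold change of the 9 was 2.65 and that of all tested genes 0.00. In Fpr2-KO 0 of 9 were called, against 4.93% and 5.75% of all tested genes called higher and lower. The median there was 0.10, beside 0.02 for all tested genes.

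Cd79b, which signals for the B cell receptor, had 10 and 16 counts in WT controls and 116 and 61 in WT SuHx, and 40 and 55 in Fpr2-KO controls and 82 and 91 in Fpr2-KO SuHx. The WT groups lay well apart, and both Fpr2-KO groups lay above the WT controls. Cd79b rose from 0.188 ± 0.058 to 1.19 ± 0.47 CPM in WT (SD, n = 2; log2 fold change 2.65 ± 0.49, edgeR adjusted p = 0.00772). Without WT SuHx library 1 the adjusted p was 0.0617. Cd79a, its partner chain, had 4 and 8 counts in WT controls, 91 and 22 in WT SuHx, 10 and 21 in Fpr2-KO controls and 18 and 23 in Fpr2-KO SuHx. WT SuHx library 1 stood far above the other 7 libraries, and WT SuHx library 3 was level with Fpr2-KO. The log2 fold change in WT was 3.09 ± 0.89 (edgeR adjusted p = 0.0398), and 1.84 with an adjusted p of 0.35 without WT SuHx library 1. The call was also lost without either WT control or either Fpr2-KO SuHx library, with adjusted p from 0.0576 to 0.144.

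Ms4a1, the gene of the surface protein CD20, had 8 and 8 counts in WT controls, 97 and 59 in WT SuHx, 11 and 28 in Fpr2-KO controls and 50 and 16 in Fpr2-KO SuHx. Both WT SuHx libraries were above the other 6. Its log2 fold change in WT was 3.16 ± 0.78 (edgeR adjusted p = 0.0233), and the call was lost without any 1 of the 4 WT libraries (adjusted p from 0.0646 to 0.121). Bank1, an adaptor of B cell receptor signalling, had 15 and 21 counts in WT controls, 107 and 75 in WT SuHx, 44 and 17 in Fpr2-KO controls and 118 and 90 in Fpr2-KO SuHx. All 4 SuHx libraries lay above all 4 controls in CPM, as in 17.5% of all tested genes, in contrast to Ms4a1. Its log2 fold change was 2.23 ± 0.52 in WT (edgeR adjusted p = 0.0193) and 1.66 ± 0.50 in Fpr2-KO, where it was not called (edgeR adjusted p = 0.0712). The WT call was lost without WT control library 1, WT SuHx library 1 or WT SuHx library 3 (adjusted p = 0.0802, 0.105 and 0.061). With column numbers taken as a replicate block, Cd79a and Ms4a1 were not called in WT (adjusted p = 0.165 and 0.0739), and Cd79b and Bank1 were.

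**Figure D2:**
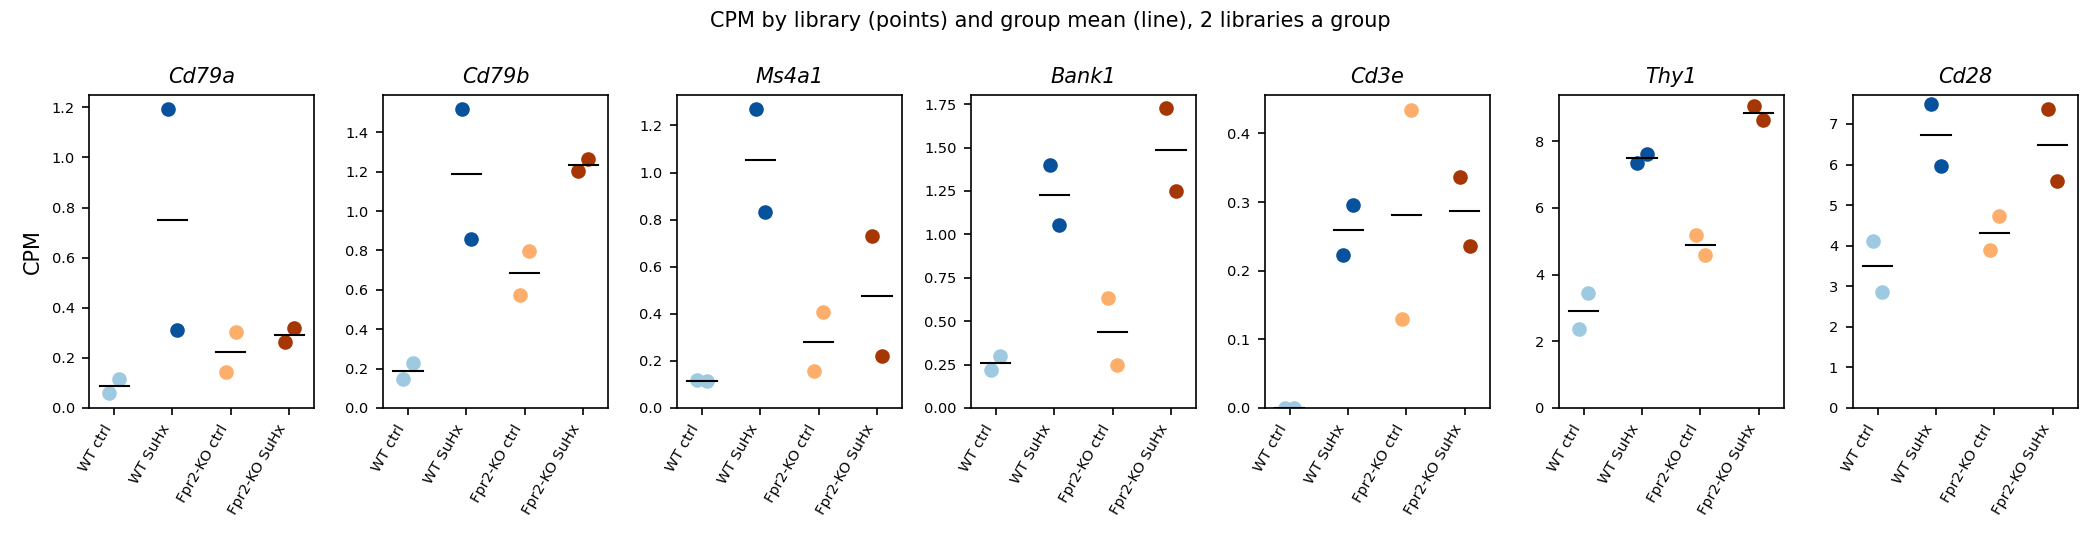
CPM of the 7 members called in WT in each library (points, 2 a group) with the group mean (line); each panel has its own linear axis from 0. Cd79b, Bank1, Thy1 and Cd28 have all 4 SuHx libraries above all 4 controls, whereas Cd79a, Ms4a1 and Cd3e overlap. Of all tested genes 17.5% have this order, beside 2 of 9 B cell, 2 of 14 T cell and 1 of 9 NK genes.

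The other 5 B cell genes were not called in WT by edgeR with all 8 libraries. DESeq2 called Cd22 higher, as did edgeR without either Fpr2-KO control library, and edgeR called Pax5 without WT control library 2. Pax5, the transcription factor of B cell identity, had 0 and 8 counts in WT controls and 58 and 12 in WT SuHx (log2 fold change 2.99 ± 1.33, edgeR adjusted p = 0.15). Cd22, an inhibitory lectin of B cells, had 8 and 6 counts against 121 and 40 (3.37 ± 1.41, edgeR adjusted p = 0.132). In both genes the groups did not overlap in WT, and in both WT SuHx library 1 held most of the counts. In all, 7 of 9 B cell genes had both WT SuHx libraries above both WT controls in CPM, as did 32.2% of all tested genes. In Fpr2-KO 2 of 9 did, Cd79b and Bank1, against 37.4% of all tested genes.

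Ighm, Igkc and Jchain followed another order across the libraries. Ighm had 226 and 313 counts in WT controls, 757 and 395 in WT SuHx, 988 and 247 in Fpr2-KO controls and 398 and 399 in Fpr2-KO SuHx. Igkc had 77 and 67, 219 and 60, 801 and 208, and 126 and 173 counts in the same order. Fpr2-KO control library 2 was the highest of the 8 in both, and the control and SuHx groups of Fpr2-KO overlapped in Ighm. Jchain, which joins units of secreted IgM and IgA, had 222 counts in that library and 5 to 44 in the other 7. In it Jchain had 20.2 times the counts of Ms4a1, and in the other libraries 0.0847 to 4.25 times. The log2 fold changes with SuHx were 0.99 ± 0.58 for Ighm, 0.82 ± 0.72 for Igkc and -0.19 ± 1.10 for Jchain in WT, and -0.73 ± 0.57, -1.85 ± 0.71 and -2.08 ± 1.08 in Fpr2-KO, none of them called by edgeR.

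The same library led in other immunoglobulin genes. Ighg2c, a class-switched heavy chain, had 1053 counts in Fpr2-KO control library 2 and 78 to 437 in the other 7, and the 60 kappa variable segments in the table summed to 484 counts there and to 25 to 156 elsewhere. Igha, the heavy chain of IgA, had 253 and 238 counts in the Fpr2-KO controls, 129 and 50 in Fpr2-KO SuHx, 65 and 105 in WT controls and 56 and 28 in WT SuHx, and it fell over both genotypes (log2 fold change -1.34 ± 0.35, edgeR adjusted p = 0.0219). Ighd, the heavy chain of IgD on naive B cells, had 14 and 0 counts in WT controls, 218 and 80 in WT SuHx, 24 and 25 in Fpr2-KO controls and 47 and 55 in Fpr2-KO SuHx, and it rose over both genotypes (2.59 ± 0.70, edgeR adjusted p = 0.026). IgD and IgA heavy chain genes thus moved in opposite directions. Constant genes resemble one another in sequence, so the division of reads among them is uncertain.

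**Figure D3:**
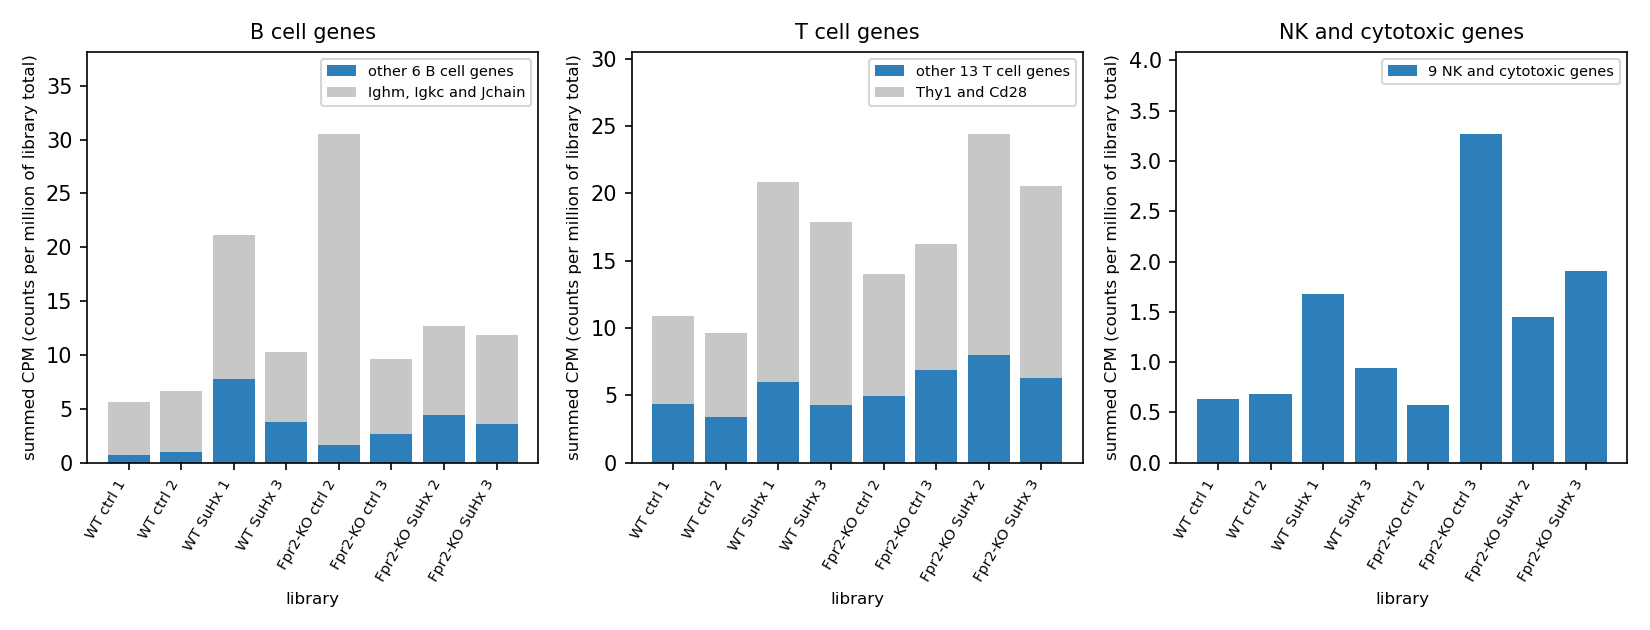
Summed CPM of B cell, T cell and NK genes in each library (bars from 0), with Ighm, Igkc and Jchain, and Thy1 and Cd28, set apart in grey. The tallest B cell bar is Fpr2-KO control library 2 at 30.5 CPM, most of it grey, and the tallest NK bar is Fpr2-KO control library 3 at 3.27 CPM.

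Summed over the class, B cell genes were at 5.62 and 6.61 CPM in WT controls, 21.1 and 10.3 in WT SuHx, 30.5 and 9.64 in Fpr2-KO controls and 12.7 and 11.8 in Fpr2-KO SuHx. Without Ighm, Igkc and Jchain, a choice made after the values were seen, the other 6 were at 0.662 and 0.956, 7.73 and 3.79, 1.62 and 2.63, and 4.41 and 3.57 CPM. With this choice all 4 SuHx libraries exceeded all 4 controls, and over all 9 genes they did not. Red cell genes (7 of 7 measured) summed to 49.2 to 343 CPM in controls and 23.9 to 622 CPM in SuHx. Hemoglobin genes were at 615 CPM in WT SuHx library 1, where 5 of 9 B cell genes had their highest count, at 23.7 CPM in WT SuHx library 3, and at 48.7 CPM in Fpr2-KO control library 2, where Ighm, Igkc and Jchain did. The part of blood in these results was not tested.

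Among other B cell genes, 5 of 22 tested were called higher and 0 lower in WT, and 1 of 22 higher and 0 lower in Fpr2-KO. Of all tested genes 10.9% were called higher and 9.63% lower in WT, and 4.93% and 5.75% in Fpr2-KO. Over both genotypes 6 of 22 were called higher and 0 lower, where 29.6% of all tested genes were called and 15.5% called higher. The median log2 fold change of these 22 genes over both genotypes was 1.04, beside 0.01 for all tested genes. The named ones were Cd180 (1.42 ± 0.24, edgeR adjusted p = 0.00332), Cd40 (1.32 ± 0.27), Cd72 (1.22 ± 0.27) and Cd37 (0.65 ± 0.18), surface proteins of B cells that macrophages or dendritic cells can also carry. Macrophage and monocyte markers (14 of 14 measured) summed to 237 to 417 CPM in controls and 455 to 577 CPM in SuHx, and their part in these 4 genes was not tested.

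For T cell genes the question is the same. In WT the receptor gene Cd3e, Thy1 and the co-stimulatory gene Cd28 were called higher, 3 of 14 tested, and 0 lower, against 10.9% and 9.63% of all tested genes called higher and lower. The median log2 fold change of the 14 was 1.22. It was the same with the 3 genes at 0 in both WT controls set at the bound that a floor of 3 counts gives. These 3 lie above the median either way, so the bound could not move it and is no check on it. In Fpr2-KO 1 of 14, Thy1, was called higher and 0 lower, against 4.93% and 5.75%, with a median of 0.24.

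Thy1 had 160 and 241 counts in WT controls, 561 and 540 in WT SuHx, 360 and 316 in Fpr2-KO controls and 618 and 621 in Fpr2-KO SuHx. The 4 SuHx libraries lay close together and above all controls, and the Fpr2-KO controls lay between. In CPM, 17.5% of all tested genes had all 4 SuHx libraries above all 4 controls. Thy1 rose from 2.90 ± 0.77 to 7.48 ± 0.18 CPM in WT (log2 fold change 1.37 ± 0.21, edgeR adjusted p = 0.00353) and from 4.88 ± 0.43 to 8.84 ± 0.30 CPM in Fpr2-KO (0.76 ± 0.20, edgeR adjusted p = 0.0486). The call in WT held in all 15 alternatives. The call in Fpr2-KO was lost in 10 of 15, with adjusted p from 0.0501 to 0.213, among them leaving out any 1 SuHx library or either Fpr2-KO control. Fibroblast markers (8 of 8 measured), whose cells also carry Thy1, summed to 2480 to 3262 CPM in controls and 2265 to 3338 CPM in SuHx, ranges that overlap. Over both genotypes 3 of these 8 genes were called higher and 2 lower, where 15.5% and 14.1% of all tested genes were. Col1a1 was among the higher (log2 fold change 1.61 ± 0.26, edgeR adjusted p = 0.00549). The part of these 8 genes in the Thy1 values was not tested.

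Cd28 had 280 and 201 counts in WT controls, 571 and 423 in WT SuHx, 271 and 327 in Fpr2-KO controls and 503 and 403 in Fpr2-KO SuHx. All 4 SuHx libraries were above all 4 controls in CPM, as in 17.5% of all tested genes. The log2 fold change was 0.93 ± 0.27 in WT (edgeR adjusted p = 0.0396) and 0.48 ± 0.26 in Fpr2-KO (edgeR adjusted p = 0.279). The WT call was lost in 8 of 15 alternatives, which were the replicate block (adjusted p = 0.065) and leaving out any 1 library other than WT control library 1 (adjusted p from 0.0515 to 0.209, the highest without WT SuHx library 1).

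Cd3e, an invariant chain of the T cell receptor complex, had 0 and 0 counts in WT controls and 17 and 21 in WT SuHx. In Fpr2-KO it had 9 and 30 counts in controls and 23 and 17 in SuHx. The WT controls thus stood apart from the other 6 libraries, which overlapped one another. It was called in WT (edgeR adjusted p = 0.0198; its fitted fold change rests on a group at 0 and is not given), lost that call in 5 of 14 alternatives, and was at -0.09 ± 0.92 in Fpr2-KO (edgeR adjusted p = 0.966). The adjusted p in WT was 0.0848 with the replicate block, 0.0563 when WT control library 1 was left out, and 0.0621 and 0.0763 when WT SuHx library 1 or 3 was.

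Other genes of the receptor complex were not called in WT by edgeR with all 8 libraries. DESeq2 called Cd3g higher in WT, and edgeR called Trbc2 and Cd4 higher without WT control library 2. Cd3g had 0 and 0 counts in WT controls, 20 and 0 in WT SuHx, 18 and 21 in Fpr2-KO controls and 11 and 28 in Fpr2-KO SuHx. Cd3d had 0 to 11 counts per library. Trac, the constant region of the alpha chain, had 20 and 15 counts in WT controls, 54 and 56 in WT SuHx, 30 and 41 in Fpr2-KO controls and 149 and 27 in Fpr2-KO SuHx. The WT groups of Trac did not overlap, and Fpr2-KO SuHx library 2 held the most of all 8. Trac was at a log2 fold change of 1.54 ± 0.75 in WT (edgeR adjusted p = 0.186) and 1.19 ± 0.72 in Fpr2-KO. Trbc2, a beta chain constant region whose reads are hard to divide from those of its near copy Trbc1, had 0 to 38 counts per library.

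Cd247, the zeta chain, went against the other receptor genes. It had 201 and 80 counts in WT controls, 155 and 65 in WT SuHx, 27 and 34 in Fpr2-KO controls and 65 and 65 in Fpr2-KO SuHx, so the WT control that lacked all 3 Cd3 chains held the most. Its position overlaps Pou2f1 on the other strand, which had 836 to 1668 counts per library, and the strand setting of the counting is not known here. The values of Cd247 are therefore uncertain, as are those of Foxp3 and Ptprcap, which overlap genes with higher counts.

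The co-receptors differed from each other. Cd4, of helper T cells and some myeloid cells, had 9 and 52 counts in WT controls, 84 and 51 in WT SuHx, 41 and 60 in Fpr2-KO controls and 50 and 91 in Fpr2-KO SuHx. Cd8a, of cytotoxic T cells, had 11 and 8, 8 and 0, 54 and 24, and 54 and 37 counts in the same order. Both Fpr2-KO libraries of Cd8a were above both WT libraries in control mice, as in 22.5% of all tested genes. They were so under SuHx too, as in 29.5% of all tested genes, whereas Cd4 overlapped in both. Cd8b1, which pairs with Cd8a, had 0 and 0 counts in WT controls, 6 and 12 in WT SuHx, 0 and 12 in Fpr2-KO controls and 25 and 16 in Fpr2-KO SuHx.

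The kinases and the cytokine receptor were not called by edgeR in any of the 6 comparisons with all 8 libraries. Lck, which starts receptor signalling, had 14 and 8 counts in WT controls, 29 and 20 in WT SuHx, 43 and 80 in Fpr2-KO controls and 38 and 46 in Fpr2-KO SuHx. Zap70, the kinase that binds the phosphorylated receptor, ranged from 0 in WT control library 1 to 54 in Fpr2-KO control library 3. Il7r, the receptor chain for the survival cytokine IL-7, had 37 and 33 counts in WT controls, 25 and 37 in WT SuHx, 70 and 88 in Fpr2-KO controls and 70 and 64 in Fpr2-KO SuHx. In control mice both Fpr2-KO libraries of Lck, Il7r and Zap70 lay above both WT libraries, as in 22.5% of all tested genes. Under SuHx those of Lck and Il7r did, as in 29.5% of all tested genes, while those of Zap70 overlapped. Foxp3, the factor of regulatory T cells, had 2 to 12 counts per library.

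Of the other T cell genes, 1 of 22 tested was called higher over both genotypes, where 15.5% of all tested genes were. Bcl11b, a factor of T cell development that other cells also express, had 34 and 12 counts in WT controls, 143 and 154 in WT SuHx, 16 and 10 in Fpr2-KO controls and 78 and 119 in Fpr2-KO SuHx (log2 fold change 2.68 ± 0.41, edgeR adjusted p = 0.00203). Thymus markers (6 of 9 in the table) summed to 4.52 to 6.27 CPM in controls and 5.48 to 6.21 CPM in SuHx, and these sums came mostly from Ccl25 and Cd1d1. Rag2, which thymocytes need, was at 0 in all 8 libraries, and Ptcra was at 0 in 7.

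**Figure D4:**
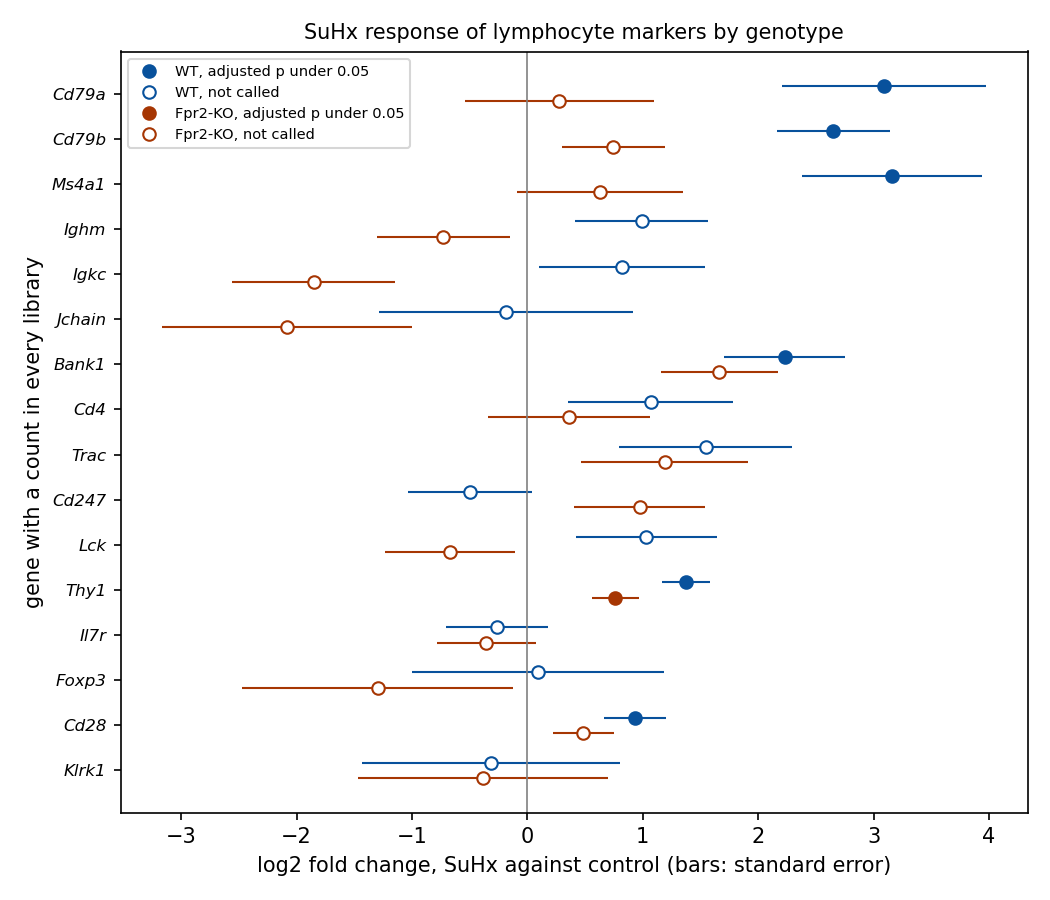
Log2 fold change of SuHx against control (points; bars are the standard error) in WT and Fpr2-KO for the 16 tested members with a count in every library. Filled points passed the test. Thy1 is filled in both genotypes, and Ighm and Igkc lie above 0 in WT and below 0 in Fpr2-KO.

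With all 8 libraries, no NK or cytotoxic member passed edgeR's test in any of the 6 comparisons, and in each of them 0 of 9 had an unadjusted p under 0.05. In WT SuHx against control DESeq2 also called 0 of the 9. The median log2 fold change of the 9 was 1.17 in WT and -0.38 in Fpr2-KO. Setting Ncr1 at its bound could not move the WT median, because Ncr1 lies above it either way. Ncr1, the activating receptor NKp46 of NK cells, had 0 and 0 counts in WT controls, 12 and 7 in WT SuHx, 0 and 24 in Fpr2-KO controls and 7 and 0 in Fpr2-KO SuHx. Prf1, the pore-forming perforin, had 8 and 0, 24 and 19, 0 and 37, and 7 and 4 counts in the same order. Eomes, a T-box factor of NK cells, had 6 and 0, 16 and 10, 0 and 8, and 8 and 11 counts, and was the NK gene in which all 4 SuHx libraries exceeded all 4 controls in CPM, as 17.5% of all tested genes did.

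Fpr2-KO control library 3 was high in several NK genes. It held 39 counts of Klrb1c, the NK1.1 antigen, against 0 to 24 in the other 7 libraries. It held 50 counts of Klrk1, the NKG2D receptor, against 6 to 37, and 26 of Tbx21, the T-bet factor, against 0 to 10. The class summed to 226 counts there and to 40 to 137 elsewhere. The Fpr2-KO controls, at 0.575 and 3.27 CPM, held both the lowest and the highest library. Nkg7, a protein of lytic granules, ranged from 0 to 26 counts, with 26 in Fpr2-KO control library 3. The granzymes Gzma and Gzmb ranged from 0 to 32 and from 0 to 24, with 16 and 0 counts in that library. Eomes had 8 counts there and 16 in WT SuHx library 1. Gzma, Gzmb and Eomes were thus not highest in Fpr2-KO control library 3. Neutrophil markers (10 of 10 measured) also summed highest in that library, to 896 counts against 124 to 272 elsewhere, and their part in the NK values was not tested. Among 13 other tested NK and cytotoxic genes, 1 was called higher over both genotypes and 0 lower, where 15.5% of all tested genes were called higher and 14.1% lower. It was Tyrobp (0.89 ± 0.17, edgeR adjusted p = 0.00519), an adaptor that macrophages also express.

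Averaged over the genotypes, SuHx raised 6 of 32 tested members, 3 B cell and 3 T cell genes, and lowered 0, where 15.5% and 14.1% of all tested genes were called higher and lower. They were Cd79b (log2 fold change 1.70 ± 0.33, edgeR adjusted p = 0.00636), Bank1 (1.95 ± 0.36, edgeR adjusted p = 0.00522), Ms4a1 (1.89 ± 0.53, edgeR adjusted p = 0.0275), Thy1 (1.07 ± 0.15, edgeR adjusted p = 0.00132), Cd28 (0.71 ± 0.19, edgeR adjusted p = 0.0229) and Cd3e (edgeR adjusted p = 0.0288). The share of members called, 18.8%, was close to that of all genes called higher. Summed over all 15 T cell genes, the SuHx libraries exceeded the controls. Without Thy1 and Cd28, a choice made after the values were seen, the ranges overlapped. They were 3.35 to 6.91 CPM in controls and 4.28 to 8.02 CPM in SuHx. Thy1, Bank1 and Cd79b kept their call in all 15 alternatives, while Ms4a1 lost it in 8 of 14, Cd3e in 9 of 14 and Cd28 in 3 of 15. Fewer members, and fewer of all tested genes, were called without WT SuHx library 1, Fpr2-KO control library 2 or Fpr2-KO SuHx library 2. Each of these fits left 1 library in a group.

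Genes that attract or sustain lymphocytes, and genes of leukocytes in general, were set beside the members. Of 13 tested attraction and survival ligands 6 were called higher over both genotypes and 0 lower, beside 15.5% and 14.1% of all tested genes. Cxcl9, a chemokine that draws activated T cells, had 101 and 129 counts in WT controls, 1049 and 780 in WT SuHx, 129 and 194 in Fpr2-KO controls and 634 and 823 in Fpr2-KO SuHx. Cxcl16 (1.15 ± 0.17), Cxcl10 (1.84 ± 0.50) and Il15, a cytokine that sustains NK cells (0.47 ± 0.10), were called higher too. Of 14 pan-leukocyte genes 11 were called higher and 0 lower, against the same shares of all tested genes, among them Ptprc, the CD45 antigen (0.79 ± 0.15, edgeR adjusted p = 0.00514), and Cd52 (1.35 ± 0.32). Their sum was 48.6 to 107 CPM in controls and 140 to 160 CPM in SuHx.

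Between genotypes in control mice, 0 of 32 tested members were called by edgeR, where 2.6% of all tested genes were, 1.43% higher and 1.18% lower. Of the 32 members, 9 had an unadjusted p under 0.05 by edgeR, 2 of B cells and 7 of T cells. DESeq2 called 5 of the 32, and 14 of the 32 had an adjusted p. It called 10.2% of all 19083 tested genes, with those lacking an adjusted p counted as not called. Lck, Thy1, Cd79b and Igkc were called higher and Cd247 lower in Fpr2-KO. The calls of edgeR also changed without WT control library 2, a fit that left 1 library in that group. Of the 32, 29 had a positive log2 fold change, with medians of 1.51 in B cell, 1.34 in T cell and 1.87 in NK genes beside 0.00 in all tested genes. Lck was at 2.46 ± 0.61 (edgeR adjusted p = 0.0727), Cd79b at 1.87 ± 0.49 (edgeR adjusted p = 0.0803), Thy1 at 0.75 ± 0.21 (edgeR adjusted p = 0.0895) and Igkc at 2.78 ± 0.74 (edgeR adjusted p = 0.092). Both Fpr2-KO controls exceeded both WT controls in 5 of 9 B cell, 9 of 14 T cell and 1 of 9 NK genes, as they did in 22.5% of all tested genes. This contrast shares its WT controls with the WT comparison of SuHx, so low WT controls enter both. Pan-leukocyte genes were at 48.6 and 82.9 CPM in WT controls and at 102 and 107 CPM in Fpr2-KO controls.

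Between genotypes under SuHx, 0 of 32 members were called by edgeR, as were 0 of all 19083 genes (0%). DESeq2 also called 0 members, with 5 of 32 left without an adjusted p, and 0.0891% of all tested genes. Of the 32, 2 had an unadjusted p under 0.05, Cd8a (log2 fold change 3.48 ± 1.11) and Il7r (1.07 ± 0.44), both of which had higher counts in Fpr2-KO. The medians were -0.54 for B cell, 0.53 for T cell and 0.49 for NK genes. Whether the SuHx response differed between genotypes was tested as an interaction. None of the 32 members was called by edgeR (0 of all 19083 genes, 0%). DESeq2 called 0 members, with 27 of 32 left without an adjusted p, and 3.06% of all tested genes. By edgeR 5 members had an unadjusted p under 0.05. These were Cd79a, Cd79b, Ms4a1, Igkc and Cd3e. All 9 B cell genes had a negative interaction, that is, a smaller log2 change with SuHx in Fpr2-KO than in WT, from -0.57 to -3.66. This sign was not particular to B cell genes. A positive interaction was found in 2 of 14 T cell, 2 of 9 NK, 1 of 14 pan-leukocyte and 2 of 14 macrophage and monocyte genes. The median of all tested genes was -0.01. The low WT controls enter this contrast too. The interaction of Cd79b was -1.91 ± 0.66 (edgeR adjusted p = 0.29) and that of Igkc -2.67 (edgeR adjusted p = 0.344).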

How the data were processed

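Right ventricle RNA was selected for poly(A) and sequenced in pairs with strand marking by dUTP, per the labels' protocols. The deposited table holds counts per gene and FPKM values for the 8 libraries, which the authors made. The submitters' processing notes name mm10, HISAT2 2.2.1, StringTie 2.1.6, cutadapt 1.9, edgeR and DESeq2 without their roles, the annotation or the strand setting. FPKM was read in the WT controls alone, and 6 FPKM columns that match no single sample were not used. Groups follow the sample titles, although the genotype label of 3 of them reads Fpr3, Fpr4 or Fpr5 where the title has Fpr2. Library numbers are those of the column names, which match the titles in WT control alone, so libraries were not paired. The libraries of each group differed by far more than sampling noise (chi-square per degree of freedom 23.6 to 76.8).

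The test was edgeR 4.0.16 (R 4.3.3) on the deposited counts. The filter filterByExpr kept 19083 genes and removed 11412. Libraries were scaled by TMM, and 1 quasi-likelihood fit of 4 group means had 4 residual degrees of freedom. All tests are two-sided, with Benjamini-Hochberg adjustment over all tested genes, and called means adjusted p under 0.05. Errors of log2 fold changes are standard errors from the F statistic. Levels are CPM of the library total, and FPKM was used to set genes side by side, with no test. Floors cover counting error only. Alternatives were DESeq2 1.42.0, other scaling and filters, a replicate block and leaving out libraries. The method was tested on simulated data. The members and lists were chosen with earlier results of these data known. Members called in any comparison are given in full, and of each further list at most 4 genes, those called over both genotypes with the smallest p and at least 0.2 CPM, besides genes named after their values were seen (Ighg2c, Rag2, Ptcra, Ccl25, Cd1d1). The remaining lists of markers gave their sums alone. A result for 1 gene of the other T cell list is not reported here. Promoters of 23 of 34 members were in the RefSeq table.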

Additional observations from a re-analysis of the deposited data

Results flagged for a closer look

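The summed counts of the 60 kappa variable segments, which belong to no tested member, were higher in both WT SuHx libraries than in both WT controls and lower in both Fpr2-KO SuHx libraries than in both Fpr2-KO controls, from 0.473 to 1.31 CPM on average in WT and from 4.61 to 0.839 CPM in Fpr2-KO. The difference between these changes, Fpr2-KO minus WT, was -4.61 CPM and was not tested. Of the Fpr2-KO controls, library 2 was the higher, with 6.96 CPM against 2.26 CPM in library 3, and library 2 had 22 of the 60 segments with a count and library 3 had 26. Groups of 2 libraries are too small to look for a library that stands apart by a rule.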

How the results depend on the processing

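In WT, 7 members were called, where 20.5% of all tested genes were. DESeq2 called 9 (Cd3g and Cd22 besides the 7), where 25.7% of all tested genes were called. The count was 4 of 9 tested with a filter of 1 CPM in 2 libraries (29% of all) and 3 with the replicate block (14.3% of all). Library 1 of WT control and library 2 of Fpr2-KO SuHx are a pair named by an earlier description of these data. Fewer members were called when both were left out, which left 1 library in each of those groups. Leaving out 1 library, which left 1 library in its group, also changed the calls. Members and all tested genes alike had fewer calls without WT SuHx library 1, WT SuHx library 3 or WT control library 1. Calls were fewest without WT SuHx library 1. In Fpr2-KO 1 member was called, where 10.7% of all tested genes were. With DESeq2 17% of all tested genes were called there, with those lacking an adjusted p counted as not called. The count of members became 3 of 32 (Thy1 and Bank1 higher, Igkc lower), and 14 of the 32 had an adjusted p. It became 0 with RLE size factors, with no filter and with the replicate block, where 10.8%, 6.62% and 6.1% of all were called. The Thy1 call was also lost without the pair of libraries and without the single libraries named above. Over both genotypes it was 7 with DESeq2 (Cd8b1 besides the 6) and 3 to 8 with 1 library left out, against 6. Between genotypes in control mice 0 members were called, where 2.6% of all tested genes were. The count became 5 with DESeq2 (10.2% of all) and 1, Cd3e, with no filter (2.22% of all). It also rose without WT control library 2, which left 1 library in that group. Of 205 values of single genes under alternatives, 143 kept their call, 62 lost it and 0 changed sign. For the replicate block, same-numbered libraries of different groups had deviations that correlated at -0.069 to 0.0905, which does not pair them. With library totals in place of TMM the median log2 fold change of all genes in Fpr2-KO was 0.12, against 0.02. The cause of these changes was not tested.

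The log2 ratio of summed B cell genes, SuHx to control, was 1.36 in WT and 0.748 to 1.79 with 1 library left out, and -0.71 in Fpr2-KO and -1.32 to 0.346, positive without control library 2. Without Ighm, Igkc and Jchain, chosen after seeing the data, it was 2.83 and 0.91. For T cell genes it was 0.91 in WT (0.80 to 1.02 with 1 library left out, 0.69 without Thy1) and 0.57 in Fpr2-KO (0.44 to 0.69), and without Thy1 and Cd28, also chosen after seeing the data, 0.41 and 0.27. For NK genes it was 0.99 in WT (0.52 to 1.35) and -0.20 in Fpr2-KO (-0.96 to 1.54, the highest without control library 3). With TMM-scaled CPM these ratios moved by less than the spread between libraries. With 2 libraries a group and counts often under 30, differences of the rarest genes can be missed at this depth.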
